A study of Mus musculus with 76 samples.

Results

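Cytoplasmic ribosomal protein genes were followed across fetal livers of mouse embryos that were knocked out for DIS3 or EXOSC10, both of them ribonucleases of the RNA exosome. The genes were chosen by name: protein-coding genes of GENCODE release M21 whose symbol is Rpl or Rps, a number and at most 1 letter of a, x, l, y or p. This rule used no measured value and gave 76 of the 49585 genes in the count files, 46 of the large (60S) subunit and 30 of the small (40S) subunit. The RNA came from E14.5 embryos of strain C57BL/6NJ. The groups were DIS3 KO embryos with their DIS3 WT controls and EXOSC10 KO embryos with their EXOSC10 WT controls. In both lines and both genotypes, total fetal liver was profiled, and so were fractions S0, S1, S2, S3 and S4+S5, sorted on CD71 and Ter119 from immature to mature erythroid cells. The labels give neither the alleles, the promoter of a Cre, the sex of the embryos nor any pooling, and do not say that replicates are separate embryos, so every p-value reflects the spread of these samples, which may be technical. The series was designed to find the genes and non-coding RNAs that depend on DIS3 and on EXOSC10 as red cells mature.

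The ribosome is built from ribosomal RNA and 1 copy of nearly every ribosomal protein per particle. Assembly needs the RNA exosome, which trims the 3′ end of a ribosomal RNA precursor and degrades the spacers. Ribosomal protein mRNAs are among the most abundant of a cell, and many start with a run of pyrimidines (the 5′TOP motif) that couples their translation to growth signals. Erythroid precursors make very large amounts of globin, and in humans the loss of 1 copy of several of these genes causes Diamond-Blackfan anaemia, a failure of red cell production. Red cells lose their nucleus and later their ribosomes as they mature.

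The values are raw counts of reads per gene, in libraries of 4.66 M to 30.41 M counts. The predicted genes Gm26917 and Gm42418 took 5.26% to 61.4% of a library. Libraries of 1 group that differed by about the counting noise of a repeated sequencing were added together, so that the 76 libraries gave 52 samples. Each sorted group held 2 samples, total liver 2 DIS3 KO, 4 DIS3 WT, 3 EXOSC10 KO and 3 EXOSC10 WT samples. Exosc10 fell in EXOSC10 KO in all 6 populations (log2 -0.44 in S3 to -1.90 in S0). Dis3 fell in DIS3 KO in S0 to S3 (log2 -0.31 in S3 to -0.95 in S0). It was not called in S4+S5 (log2 -0.68, adjusted p = 0.134, edgeR). In DIS3 total liver it stood at 32.4 and 31.7 CPM in KO, inside the 29.8 to 49.9 CPM of WT (log2 -0.25, adjusted p = 0.245, edgeR), so the counts of the targeted gene do not check the labels of that group.

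Levels below are CPM, counts scaled by library size with TMM factors within each comparison. A gene was said to rise or fall where edgeR's quasi-likelihood test gave a Benjamini-Hochberg adjusted p under 0.05 over all genes tested, and log2 values are KO over WT with their standard error. Ribosomal protein genes have many processed pseudogenes, and reads can be split among such copies. In these files 266 pseudogenes carried the names of 55 of the 76 genes. A median of 19.7% of the 50-base words of a gene's exons occurred in other genes, and the share was highest in 4 genes, Rpl36 (81.1%), Rpl19 (57.4%), Rpl24 (51.8%) and Rpl23a (50.1%). Values of those 4 are uncertain, since how multi-mapped reads were counted is not given in the sources used here. To a lesser degree this limit holds for other genes named below, such as Rpl17 (44.7%), Rps6 (43.8%) and Rps2 (43.0%). It also holds for levels per kilobase.

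In WT S0, 75 of the 76 genes had counts. Per kilobase of exon, the level over both lines was highest for Rpl4 (221 RPKM, CPM divided by exon length), whose protein lines the exit tunnel of the ribosome. Rpl8 (218 RPKM) followed, and the median was 21.8 RPKM. At the low end stood Rpl10l with no counts, Rpl3l with 0.0405 RPKM and Rpl39l with 0.457 RPKM. These 3 are paralogues known for expression in testis (Rpl10l, Rpl39l) and in heart and skeletal muscle (Rpl3l). Rpl10l and Rpl3l never held more than 1 and 5 counts in a sample of the KO comparisons and were tested in none of them.

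Along the WT fractions, rising genes were most frequent between S0 and S1 and falling genes between S3 and S4+S5. Between S0 and S1, 39 of the 74 genes tested rose, and the other 35 were not called (median log2 S1 over S0 0.29). Of all genes, 28.1% rose and 33.4% fell at this step. Rpl3, part of the peptidyl transferase centre, stood in S1 at 350, 350, 384 and 410 CPM, against 211, 238, 238 and 274 CPM in S0. No S1 sample overlapped the S0 samples (log2 0.64 ± 0.08, adjusted p = 4.27e-07, edgeR). Rpl13a stood in S1 at 58.7, 48.9, 64.2 and 65.0 CPM, against 37.4, 35.9, 37.7 and 39.1 CPM in S0 (log2 0.66 ± 0.12, adjusted p = 3.91e-05, edgeR), again with no overlap. Rpl39l, at a low level, rose as well (log2 1.03 ± 0.29, adjusted p = 0.0043, edgeR).

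From S1 to S2 no ribosomal protein gene passed edgeR's test, with 4 at an unadjusted p under 0.05 and 2 called by the DESeq2 Wald test, against 11.6% of all genes that rose and 11.9% that fell. From S2 to S3, 3 rose (Rpl39, Rpl35, Rps2) and 19 fell (median log2 -0.16), against 29.3% and 29.9% of all genes. The summed TMM-scaled levels overlapped, with 6604 to 7674 CPM in S3 and 7025 to 7878 CPM in S2. The share of all counts without Gm26917 and Gm42418 dropped more. In DIS3 WT it was 0.772% to 0.78% in S3, against 1.33% to 1.44% in S2. In EXOSC10 WT it was 0.828% to 0.853% in S3, against 1.37% to 1.4% in S2. The call of Rpl39 was lost without the EXOSC10 WT S3 sample of replicates 2 and 3 (adjusted p = 0.0522, edgeR), and that of Rpl35 without that sample or either EXOSC10 WT S2 sample (adjusted p = 0.0668 to 0.0877, edgeR). Rpl10a was the gene with the largest change at this step. It held 38.5, 38.7, 43.4 and 47.0 CPM in S3, against 78.5, 86.1, 94.1 and 79.9 CPM in S2 (log2 -1.01 ± 0.12, adjusted p = 3.95e-07, edgeR). All 4 S3 samples lay below all 4 S2 samples.

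In S4+S5, the last fraction, 61 of the 74 genes fell relative to S3 and 1 rose, with a median log2 of -0.57. The median of all genes at this step was 0.21 (-0.02 without Gm26917 and Gm42418, where that of the ribosomal protein genes was -0.80), with 41.0% of genes rising and 25.4% falling. Rps27l, a paralogue of Rps27 that is a p53 target in humans, fell to 12.5, 9.32, 11.3 and 10.6 CPM in S4+S5, against 30.1, 26.4, 20.5 and 23.9 CPM in S3 (log2 -1.19 ± 0.15, adjusted p = 5.91e-07, edgeR). Rpl3 stood at 150, 187, 172 and 167 CPM in S4+S5, against 287, 300, 310 and 347 CPM in S3 (log2 -0.88 ± 0.08, adjusted p = 3.13e-09, edgeR). The groups did not overlap for either gene. Rpl41, which encodes the smallest ribosomal protein, was the 1 that rose (log2 0.56 ± 0.18, adjusted p = 0.0103, edgeR). It held 117 and 187 CPM in DIS3 WT S4+S5, 77.3 and 66.7 CPM in EXOSC10 WT S4+S5, and 61.0 to 81.7 CPM in S3, so the lines differed, and the call was lost without the DIS3 WT S4+S5 sample of 187 CPM (log2 0.25, adjusted p = 0.0965, edgeR), without Gm26917 and Gm42418 (log2 0.32) and in the EXOSC10 line alone (log2 0.11). All 7 macrophage, all 6 B cell and all 4 granulocyte markers also rose in WT S4+S5 relative to S3, and their part in the decline was not tested.

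**Figure D1:**
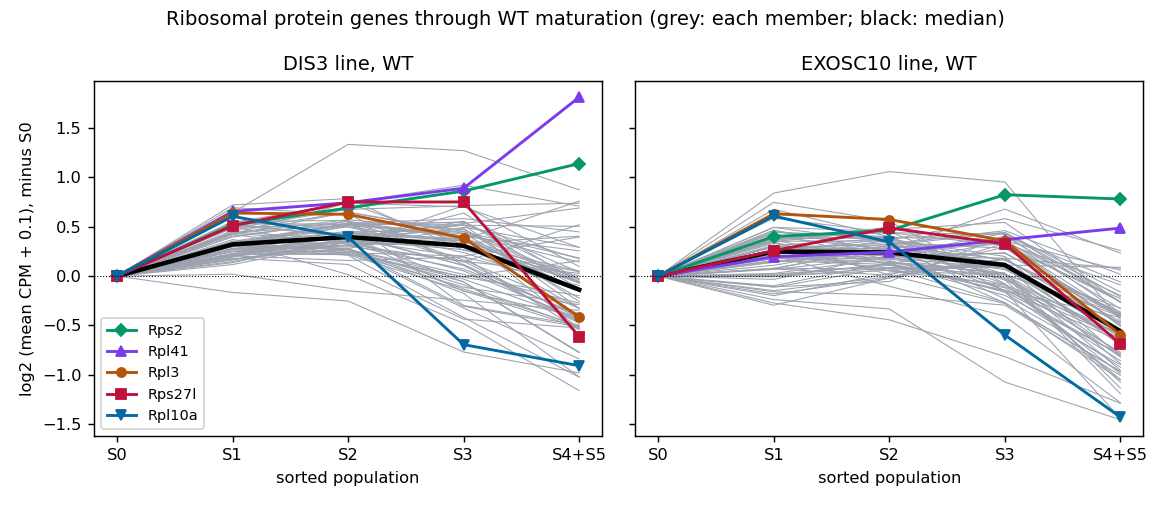
Log2 of the mean WT level (CPM plus 0.1) in each sorted fraction minus that in S0, for each ribosomal protein gene (grey), the median gene (black) and 5 named genes (colours). Most grey lines lie above 0 in S1 and S2 and drop in S4+S5, whereas Rpl41 keeps climbing and Rpl10a drops already in S3.

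For 57 of the 76 genes, the RefSeq table (build GRCm38.p6) gave the 250 bases before and the first 50 bases of at least 1 transcription start. Because these genes share a known start motif, the windows were searched for a run of at least 5 pyrimidines that begins with C within 10 bases of the start. Such a run was present in 33 of the 57 genes (57.9%), against 30.7% of all 32851 windows in the table. The 7-letter word CCGGAAG, the core recognised by ETS factors such as GABP, occurred on either strand in 23 of the 57 (40.4%), against 8.86% of all windows. The word GCGCATGC, part of the palindrome recognised by NRF1, occurred on either strand in 3 (5.26%), against 2.71% of all windows. A match is a run of letters in the reference and does not show that a factor bound there. Only 21 of the 57 RefSeq starts lay within 10 bases of the GENCODE start.

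The following windows hold the 30 bases before a RefSeq start and the first 20 of the transcript, on the coding strand, with the C-led pyrimidine run in capitals. They are shown for genes that rose (Rpl14, Rpl18, Rps6) and genes that fell (Rps12, Rps21, Rpl39) in the sorted KO fractions described further on. The RefSeq start lay 2614 bases from the GENCODE start in Rpl18, 180 in Rpl39, 73 in Rpl14, 66 in Rps12, 45 in Rps6 and 2 in Rps21. A marked run therefore need not lie at the start of the GENCODE transcript. Rpl14 is read at chr9:120571487-120571536 (+), Rpl18 at chr7:45718041-45718090 (+), Rps6 at chr4:86857348-86857397 (-), Rps12 at chr10:23787190-23787239 (-), Rps21 at chr2:180257349-180257398 (+) and Rpl39 at chrX:37085203-37085252 (-).
Rpl14: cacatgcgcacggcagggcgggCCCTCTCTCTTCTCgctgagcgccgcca
Rpl18: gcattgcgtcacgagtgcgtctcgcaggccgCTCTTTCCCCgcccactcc
Rps6: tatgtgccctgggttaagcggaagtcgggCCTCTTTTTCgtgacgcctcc
Rps12: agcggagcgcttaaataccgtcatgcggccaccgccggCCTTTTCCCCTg
Rps21: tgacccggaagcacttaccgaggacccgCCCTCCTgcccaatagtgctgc
Rpl39: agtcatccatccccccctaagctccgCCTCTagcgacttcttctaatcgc
The printed genes were taken from those with a run (5 to 14 letters), so they cannot compare genes that rose with genes that fell. By this search no run stood in Rpl23, Rpl37, Rpl4, Rps15, Rps28 and Rps3, which also rose often. Nor did one stand in Rpl22, which fell in 3 sorted comparisons. In Rpl4 a C-led pyrimidine run begins more than 10 bases before the RefSeq start. The GENCODE start of Rpl4, 12 bases upstream, lies inside that run. A missing run can therefore reflect the start used. A run stood in Rpl6, Rps2, Rps18, Rps27l and Rps7, which rose often, and in Rpl19, which fell in 2. For each of the 57 genes, the median log2 over the 10 sorted KO comparisons was taken. The median of these values was 0.15 with a run by this search (33 genes) and 0.23 without one (24 genes, Rpl4 among them).

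The next windows show CCGGAAG, or its reverse complement CTTCCGG, in capitals with 20 bases on each side. Rps2 is read at chr17:24719916-24719962 (+), Rpl37 at chr15:5116570-5116616 (+), Rps18 at chr17:33955714-33955760 (-), Rps6 at chr4:86857432-86857478 (-), Rps21 at chr2:180257333-180257379 (+) and Rpl19 at chr11:98026651-98026697 (+).
Rps2: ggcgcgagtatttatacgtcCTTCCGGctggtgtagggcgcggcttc
Rpl37: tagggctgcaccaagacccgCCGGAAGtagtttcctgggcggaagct
Rps18: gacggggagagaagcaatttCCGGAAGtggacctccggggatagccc
Rps6: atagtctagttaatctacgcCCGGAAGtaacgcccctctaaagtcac
Rps21: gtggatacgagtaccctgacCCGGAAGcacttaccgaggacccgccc
Rpl19: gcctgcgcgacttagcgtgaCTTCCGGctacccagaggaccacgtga
The first 4 rose in at least 6 of the 10 sorted KO comparisons, and Rps21 and Rpl19 fell in 2 each. The median of the median log2 values was 0.25 with the word (23 genes) and 0.18 without it (34 genes), and both motifs stood in genes of either direction.

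The share of all counts taken by the 76 genes together, leaving out Gm26917 and Gm42418, ran in opposite directions in total liver and in the later sorted fractions. In DIS3 total liver it was 0.845% to 1.04% in KO, against 1.06% to 1.18% in WT, and in EXOSC10 total liver 0.878% to 0.922% in KO, against 1.17% to 1.22% in WT. In DIS3 S4+S5 it was 0.607% to 0.617% in KO, against 0.374% to 0.448% in WT, and in EXOSC10 S4+S5 0.593% to 0.595% in KO, against 0.352% to 0.353% in WT. In S1 and S3 of both lines and in S2 of the EXOSC10 line the KO samples also lay above the WT samples without overlap. The KO and WT ranges overlapped in DIS3 S0 (1.19% to 1.22% in KO, 1.09% to 1.22% in WT) and in DIS3 S2 (1.40% to 1.59% in KO, 1.33% to 1.44% in WT). In EXOSC10 S0 the order was turned round, with 1.05% to 1.17% in KO, against 1.23% to 1.42% in WT. With Gm26917 and Gm42418 counted in the total, KO and WT overlapped in 5 of these groups that were apart without them. These were DIS3 total liver (0.786% to 0.986% in KO, 0.899% to 1.04% in WT), EXOSC10 S0 (0.626% to 0.682% in KO, 0.618% to 0.945% in WT) and EXOSC10 S1 (0.863% to 1.00% in KO, 0.701% to 0.956% in WT). The others were EXOSC10 S2 (0.884% to 0.900% in KO, 0.847% to 1.02% in WT) and EXOSC10 S3 (0.647% to 0.684% in KO, 0.592% to 0.654% in WT).

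**Figure D2:**
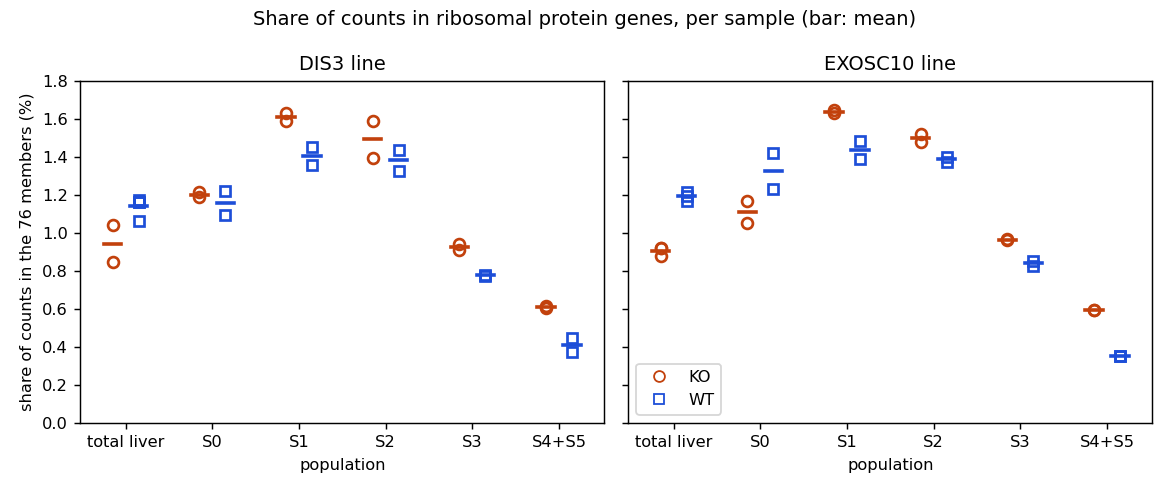
Share of all counts (percent, without Gm26917 and Gm42418) held by the 76 ribosomal protein genes in each sample, by line, population and genotype. KO points lie below WT in total liver of both lines and in EXOSC10 S0, and above WT in S1, S3 and S4+S5 of both lines.

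In DIS3 total liver, 25 of the 74 genes tested fell, 2 rose and 47 were not called, with a median log2 of -0.21. Of all genes, 24.2% fell and 26.5% rose, together 50.7%, so the share of ribosomal protein genes called at all (36.5%) was below that of all genes. Rpl29 fell most among genes above 1 CPM, to 4.85 and 4.27 CPM in KO, against 7.80, 8.45, 7.08 and 6.58 CPM in WT (log2 -0.73 ± 0.16, adjusted p = 0.00133, edgeR). Below 1 CPM, Rpl39l fell to 0.0632 and 0.247 CPM in KO, against 0.870, 0.492, 0.316 and 0.658 CPM in WT (log2 -1.91 ± 0.57, adjusted p = 0.0114, edgeR). That call was lost without WT replicate 1 (adjusted p = 0.0894, edgeR) or the KO sample of replicates 1 and 3 (log2 -1.24). Rpl41 held 79.1 and 136 CPM in KO, against 168, 157, 152 and 146 CPM in WT (log2 -0.54 ± 0.16, adjusted p = 0.00978, edgeR), and Rps28 held 19.2 and 26.9 CPM in KO, against 39.7, 35.3, 30.3 and 24.8 CPM in WT (log2 -0.53 ± 0.16, adjusted p = 0.0144, edgeR). For Rpl29 and Rpl41 both KO samples lay below all WT samples, whereas for Rps28 1 KO sample lay above the lowest WT sample. The 2 that rose were Rps27l, with 57.1 and 63.4 CPM in KO, against 45.0, 44.1, 52.0 and 33.4 CPM in WT (log2 0.44 ± 0.13, adjusted p = 0.00943, edgeR), and Rpl10 (log2 0.35 ± 0.10, adjusted p = 0.0108, edgeR). Rps19, the gene mutated most often in Diamond-Blackfan anaemia, held 76.9 and 85.5 CPM in KO, against 113, 99.7, 95.9 and 96.8 CPM in WT (log2 -0.32 ± 0.10, adjusted p = 0.0141, edgeR).

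The count in DIS3 total liver rested on single samples, with 6 falling and 2 rising without the KO sample of replicates 1 and 3 and 13 falling and 2 rising without WT replicate 1. The calls of Rpl41, Rps28 and Rps19 were lost without that KO sample (adjusted p = 0.137, 0.164 and 0.0799, edgeR), that of Rps19 also without WT replicate 1 (adjusted p = 0.0664, edgeR), and that of Rps27l without the KO sample of replicates 2 and 4 (adjusted p = 0.0683, edgeR).

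In EXOSC10 total liver, 60 of the 73 genes tested fell and 13 were not called, against 31.0% of all genes that fell and 31.4% that rose. Leaving out any 1 sample gave 57 to 59. Besides Rps7, the genes above 1 CPM that fell most were Rps16 and Rps27. Rps16 held 32.6, 30.2 and 24.6 CPM in KO, against 46.8, 43.4 and 40.1 CPM in WT (log2 -0.56 ± 0.10, adjusted p = 0.000274, edgeR). Rps27, which encodes a zinc-binding protein of the small subunit, held 38.0, 37.1 and 40.6 CPM in KO, against 53.3, 55.2 and 57.8 CPM in WT (log2 -0.53 ± 0.06, adjusted p = 1.8e-05, edgeR). Its paralogue Rps27l held 50.9, 47.3 and 53.4 CPM in KO, against 47.4, 50.1 and 55.6 CPM in WT (log2 -0.02), with groups that overlapped throughout. Rps19 held 79.1, 74.8 and 79.1 CPM in KO, against 101, 98.9 and 102 CPM in WT, without overlap (log2 -0.37 ± 0.06, adjusted p = 9.16e-05, edgeR). Across the 73 genes, those at a higher level per kilobase in WT S0 had lower log2 values (Spearman's rho -0.60 across genes, which share libraries and are not independent; -0.28 over 74 genes in DIS3 total liver).

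Marker genes of cell types moved with these values in total liver. All 8 erythroid markers fell in both lines, summed to 5793 to 7851 CPM in DIS3 KO, against 12880 to 15070 CPM in DIS3 WT, and to 3489 to 4748 CPM in EXOSC10 KO, against 8894 to 9586 CPM in EXOSC10 WT. All 6 hepatocyte markers rose, summed to 99860 to 102600 CPM in DIS3 KO, against 44570 to 51060 CPM in DIS3 WT, and to 52110 to 71110 CPM in EXOSC10 KO, against 29560 to 37650 CPM in EXOSC10 WT. In such bulk samples fewer cells of a type and less RNA per cell cannot be told apart, and the part of these markers in the fall of ribosomal protein genes was not tested.

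**Figure D3:**
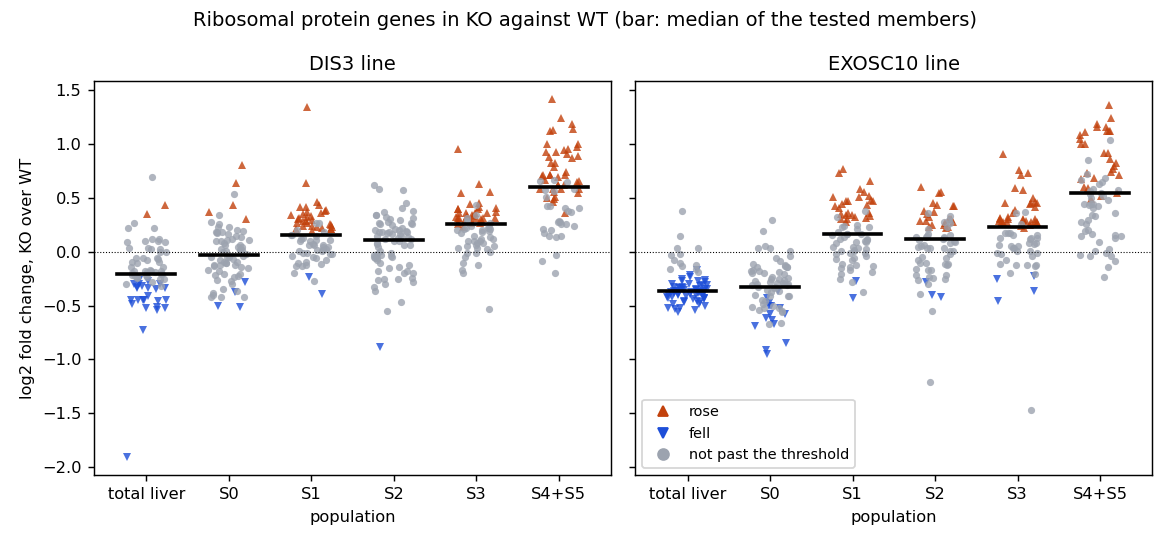
Log2 change in KO over WT of every ribosomal protein gene tested (points) with the median (bar), in each population of both lines. The medians lie below 0 in total liver of both lines and in EXOSC10 S0 and above 0 in S1, S3 and S4+S5, where they are largest (0.60 in DIS3, 0.55 in EXOSC10).

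In S0, the most immature fraction, 5 of the 74 genes tested rose in DIS3 KO and 4 fell (median log2 -0.03), against 31.0% of all genes called in either direction. Rps27l held 39.1 and 44.4 CPM in KO, against 20.3 and 27.3 CPM in WT (log2 0.81 ± 0.15, adjusted p = 0.0025, edgeR). Rpl5, which with Rpl11 binds 5S ribosomal RNA and can block Mdm2, the inhibitor of p53, held 122 and 107 CPM in KO, against 70.9 and 76.9 CPM in WT (log2 0.64 ± 0.10, adjusted p = 0.000873, edgeR). Neither gene's groups overlapped. Rpl11 was not called in DIS3 S0. With both lines scaled together, it held 65.8 and 42.7 CPM in KO, against 68.1 and 81.1 CPM in WT. Rpl15, Rpl22 and Rps15a also rose (log2 0.43, 0.37 and 0.31; the call of Rpl15 was lost without the WT sample of replicates 1 and 3, adjusted p = 0.246, edgeR).

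The 4 that fell in DIS3 S0 were Rps29, Rps26, Rps20 and Rpl39. Rps29 held 29.7 and 27.8 CPM in KO, against 37.8 and 44.9 CPM in WT (log2 -0.52 ± 0.13, adjusted p = 0.0105, edgeR), and Rps20 held 214 and 245 CPM in KO, against 288 and 305 CPM in WT (log2 -0.37 ± 0.10, adjusted p = 0.0168, edgeR). Rps26, whose protein contacts mRNA upstream of the start codon, held 62.9 and 55.1 CPM in KO, against 69.5 and 98.5 CPM in WT (log2 -0.50 ± 0.15, adjusted p = 0.0279, edgeR). The KO and WT samples of these 3 genes were apart, but without WT replicate 2 only 4 genes rose and 1 fell, with Rps29, Rps26, Rps20 and Rpl39 at adjusted p = 0.208, 0.381, 0.0505 and 0.334 (edgeR). The call of Rps20 was also lost without the KO sample of replicates 1 and 3 (adjusted p = 0.0594, edgeR), and that of Rpl39 without KO replicate 2 or the WT sample of replicates 1 and 3 (adjusted p = 0.0746 and 0.0635, edgeR). Without the KO sample of replicates 1 and 3, 6 rose and 13 fell.

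In EXOSC10 S0, 15 of the 73 genes tested fell and 58 were not called (median log2 -0.32), against 4.63% of all genes that fell and 8.84% that rose. Rpl39, a small protein of the exit tunnel, held 58.1 and 49.7 CPM in KO, against 96.2 and 111 CPM in WT (log2 -0.95 ± 0.12, adjusted p = 0.00232, edgeR). Rps29 held 26.9 and 18.8 CPM in KO, against 35.4 and 48.9 CPM in WT (log2 -0.91 ± 0.21, adjusted p = 0.0245, edgeR), and Rpl21 held 7.02 and 6.31 CPM in KO, against 12.02 and 11.86 CPM in WT (log2 -0.85 ± 0.21, adjusted p = 0.034, edgeR). The KO samples lay below the WT samples for all 3 genes. The calls of Rps29 and Rpl21 were lost without the WT sample of replicates 2 and 3 (adjusted p = 0.174 and 0.198, edgeR; that of Rpl21 also without WT replicate 1 or the KO sample of replicates 2 and 3, 0.136 and 0.0628), which left 3 genes falling, whereas 40 fell without KO replicate 1 and 9 without the KO sample of replicates 2 and 3. Hepatocyte markers in this fraction summed to 60.5 to 909 CPM in KO, against 24.0 to 33.6 CPM in WT, and B cell markers to 18.2 to 28.6 CPM in KO, against 176 to 184 CPM in WT. In DIS3 S0, granulocyte markers summed to 321 to 506 CPM in KO, against 2335 to 2609 CPM in WT. Their part in the values of S0 was not tested.

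In S1 more genes rose than fell in both lines. In DIS3 KO 32 of the 74 tested rose and 2 fell (median log2 0.15), against 20.6% and 19.4% of all genes, and in EXOSC10 KO 27 of 74 rose and 2 fell (median log2 0.16), against 15.2% and 15.5%. Rps2, which lines the entry channel of mRNA, held 139 and 132 CPM in DIS3 KO, against 103 and 92.7 CPM in DIS3 WT (log2 0.46 ± 0.07, adjusted p = 0.000203, edgeR). In EXOSC10 it held 151 and 138 CPM in KO, against 88.8 and 84.1 CPM in WT (log2 0.73 ± 0.09, adjusted p = 1.48e-06, edgeR). Rps2 thus stood higher in every KO sample than in any WT sample of its line.

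Among the other genes named in S1, Rps27l held 52.1 and 44.4 CPM in DIS3 KO, against 33.7 and 26.2 CPM in DIS3 WT (log2 0.64 ± 0.11, adjusted p = 0.000734, edgeR). Rpl39l, still at a low level, rose in DIS3 KO, with 2.15 and 1.81 CPM in KO, against 0.805 and 0.709 CPM in WT (log2 1.35 ± 0.36, adjusted p = 0.0113, edgeR), a call lost without the KO or the WT sample of replicates 1 and 3 (adjusted p = 0.0845 and 0.1004, edgeR). Rpl13 held 101 and 82.1 CPM in EXOSC10 KO, against 54.5 and 51.9 CPM in EXOSC10 WT (log2 0.77 ± 0.10, adjusted p = 3.62e-06, edgeR). All of these were apart between genotypes. Rps7 rose in EXOSC10 S1, with 135 and 111 CPM in KO, against 67.0 and 85.8 CPM in WT (log2 0.66 ± 0.11, adjusted p = 8.1e-05, edgeR), although it fell in EXOSC10 total liver (104, 98.4 and 93.1 CPM in KO).

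A few genes went the other way in S1. Rps12 fell in DIS3 KO, with 52.0 and 53.9 CPM in KO, against 71.1 and 67.1 CPM in WT (log2 -0.39 ± 0.07, adjusted p = 0.000751, edgeR). Rps27a, whose product is a fusion of ubiquitin to a small subunit protein, fell in both lines. It held 34.4 and 33.7 CPM in EXOSC10 KO, against 46.6 and 45.2 CPM in EXOSC10 WT (log2 -0.43 ± 0.10, adjusted p = 0.00222, edgeR), and its log2 was -0.23 in DIS3 (adjusted p = 0.0293, edgeR; 0.168 without WT replicate 2 and 0.0866 without the KO sample of replicates 1 and 3). The second gene that fell in EXOSC10 S1 was Rpl22 (log2 -0.27, adjusted p = 0.0337, edgeR), a call lost without any of 3 of the 4 samples (adjusted p = 0.0812 to 0.248, edgeR). Only 1 gene was called in DIS3 S1, and 17 in EXOSC10 S1, when all sorted samples of a line were fitted and scaled together, and 14 were called in EXOSC10 S1 without WT replicate 1. Granulocyte markers summed in S1 to 2.97 to 24.1 CPM in DIS3 KO, against 259 to 813 CPM in DIS3 WT, and to 3.70 to 13.9 CPM in EXOSC10 KO, against 244 to 551 CPM in EXOSC10 WT, with their part in the change not tested.

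In S2 a single gene was called in DIS3 KO, Rpl39, which fell to 58.9 and 34.6 CPM in KO, against 91.5 and 83.6 CPM in WT (log2 -0.89 ± 0.22, adjusted p = 0.0308, edgeR). The background was 4.80% of all genes falling and 10.3% rising. The median log2 of 0.11 became -0.02 when all sorted samples of the line were scaled together, which set the median of all genes at -0.11. Without the WT sample of replicates 1 and 3 no gene was called, whereas 31 were without the KO sample of replicates 1 and 3 and 8 without KO replicate 2. In EXOSC10 KO 22 of 74 rose and 3 fell (median log2 0.12), against 11.6% and 9.86% of all genes.

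Rpl13 held 87.9 and 82.7 CPM in EXOSC10 S2 KO, against 60.2 and 52.6 CPM in WT (log2 0.60 ± 0.08, adjusted p = 0.00223, edgeR), and Rps2 held 146 and 127 CPM in KO, against 102 and 85.8 CPM in WT (log2 0.55 ± 0.10, adjusted p = 0.00705, edgeR). Rps28 held 20.96 and 24.6 CPM in KO, against 14.2 and 16.6 CPM in WT (log2 0.56 ± 0.14, adjusted p = 0.0257, edgeR), a call lost without WT replicate 1 or the KO sample of replicates 2 and 3 (adjusted p = 0.112 and 0.0628, edgeR). KO and WT samples were apart for these 3 genes. The 3 that fell were Rps29 (28.3 and 28.5 CPM in KO, against 37.8 and 38.3 CPM in WT; log2 -0.42 ± 0.09, adjusted p = 0.0115, edgeR), Rpl19 (log2 -0.41 ± 0.10) and Rpl22 (log2 -0.28). The calls of Rps29, Rpl19 and Rpl22 were lost without the WT sample of replicates 2 and 3 (adjusted p = 0.0625, 0.235 and 0.133, edgeR), and that of Rpl22 also without WT replicate 1 or KO replicate 1 (0.152 and 0.0665). In all, 14 genes were called without WT replicate 1, and 5 when all sorted samples of the line were fitted together. In EXOSC10 S2 hepatocyte markers summed to 111 to 114 CPM in KO, against 11.5 to 13.2 CPM in WT, and all 7 macrophage markers fell; their part was not tested.

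In S3, 34 of the 74 genes rose in DIS3 KO and 40 were not called (median log2 0.26), against 16.3% of all genes that rose and 15.9% that fell. In EXOSC10 KO 35 of 74 rose and 4 fell (median log2 0.23), against 16.8% and 17.2%. Rps28, a small protein at the mRNA exit that is mutated in some families with Diamond-Blackfan anaemia, rose in both lines. It held 16.7 and 16.9 CPM in DIS3 KO, against 9.58 and 7.58 CPM in DIS3 WT (log2 0.96 ± 0.14, adjusted p = 0.000287, edgeR), and 14.9 and 16.9 CPM in EXOSC10 KO, against 8.12 and 8.76 CPM in EXOSC10 WT (log2 0.91 ± 0.13, adjusted p = 0.000155, edgeR). No KO sample lay below 14.9 CPM and no WT sample above 9.58 CPM.

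Rpl28 rose in DIS3 S3, with 37.0 and 36.5 CPM in KO, against 25.9 and 24.1 CPM in WT (log2 0.56 ± 0.09, adjusted p = 0.000462, edgeR). Rpl17 held 7.61 and 10.1 CPM in KO, against 5.69 and 5.48 CPM in WT (log2 0.63 ± 0.19, adjusted p = 0.024, edgeR; 0.109 without KO replicate 2 and 0.0678 without WT replicate 2). In EXOSC10 S3 Rpl11 held 73.5 and 69.9 CPM in KO, against 39.2 and 44.7 CPM in WT (log2 0.76 ± 0.07, adjusted p = 7.17e-06, edgeR). Rpl23 held 52.5 and 55.7 CPM in EXOSC10 KO, against 33.2 and 32.3 CPM in EXOSC10 WT (log2 0.73 ± 0.07, adjusted p = 8.65e-06, edgeR). The genotypes did not overlap for any of these genes.

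The 4 that fell in EXOSC10 S3 included Rps21, with 33.5 and 33.6 CPM in KO, against 41.9 and 49.1 CPM in WT (log2 -0.45 ± 0.09, adjusted p = 0.00131, edgeR), and Rpl39, with 65.2 and 73.3 CPM in KO, against 86.7 and 91.8 CPM in WT (log2 -0.37 ± 0.07, adjusted p = 0.00105, edgeR). Rps29 fell as well (log2 -0.25, adjusted p = 0.0399, edgeR), a call lost without any 1 of the 4 samples (adjusted p = 0.0504 to 0.265). In DIS3 S3, 22 genes were called without WT replicate 2, 22 without the KO sample of replicates 1 and 3, 22 with the DESeq2 Wald test and 3 when all sorted samples of the line were fitted together; in EXOSC10 S3 the last setting called 10. All 7 macrophage markers fell in S3 in both lines, to sums of 1.83 to 2.57 CPM in DIS3 KO, against 15.5 to 16.4 CPM in DIS3 WT, and of 2.93 to 3.86 CPM in EXOSC10 KO, against 20.98 to 23.7 CPM in EXOSC10 WT. Their part in the change was not tested.

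The largest changes stood in S4+S5. In DIS3 KO 44 of the 72 genes tested rose and 28 were not called (median log2 0.60), against 23.4% of all genes that rose and 23.7% that fell. In EXOSC10 KO 29 of 73 rose and 44 were not called (median log2 0.55), against 7.63% and 7.52%. Rps27l, Rps28 and Rps15 rose most in DIS3 KO. Rps27l held 16.7 and 18.9 CPM in KO, against 7.54 and 5.51 CPM in WT (log2 1.42 ± 0.26, adjusted p = 0.000212, edgeR), and Rps28 held 12.1 and 14.6 CPM in KO, against 5.30 and 5.89 CPM in WT (log2 1.25 ± 0.28, adjusted p = 0.0013, edgeR). Rps15, which acts in late 40S assembly, held 109 and 116 CPM in KO, against 44.3 and 54.5 CPM in WT (log2 1.19 ± 0.16, adjusted p = 4.68e-06, edgeR).

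In EXOSC10 S4+S5, Rps28 held 10.8 and 10.6 CPM in KO, against 4.38 and 3.91 CPM in WT (log2 1.36 ± 0.25, adjusted p = 0.0212, edgeR), and Rps27l held 15.9 and 13.9 CPM in KO, against 6.43 and 6.03 CPM in WT (log2 1.25 ± 0.21, adjusted p = 0.0172, edgeR). Rps6, the target of S6 kinases, held 54.2 and 40.2 CPM in KO, against 17.7 and 23.3 CPM in WT (log2 1.19 ± 0.21, adjusted p = 0.0191, edgeR). Rps19 rose in both lines, with 97.04 and 93.2 CPM in DIS3 KO, against 46.5 and 50.7 CPM in DIS3 WT (log2 0.97 ± 0.15, adjusted p = 3.44e-05, edgeR), and with 73.3 and 75.04 CPM in EXOSC10 KO, against 32.6 and 34.0 CPM in EXOSC10 WT (log2 1.16 ± 0.10, adjusted p = 0.00272, edgeR). In each of these genes every KO sample lay well above both WT samples of its line. The parent gene Rps27 was not called in either line (log2 0.21 in DIS3, 0.48 in EXOSC10).

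With all sorted samples of a line scaled together, the median log2 was 0.37 in DIS3 and 0.32 in EXOSC10 S4+S5, while the median of all genes stood at -0.25 in both. The number of calls in EXOSC10 S4+S5 was 14 without the WT sample of replicates 2 and 3, 51 (all rising) without KO replicate 1, and 51 (45 rising and 6 falling) without the KO sample of replicates 2 and 3. The calls of Rps28 and Rps27l there were lost without either WT sample (adjusted p = 0.134 and 0.227 for Rps28, 0.0963 and 0.145 for Rps27l, edgeR). All 7 macrophage markers fell in S4+S5, to sums of 15.9 to 33.9 CPM in DIS3 KO, against 233 to 317 CPM in DIS3 WT, and of 30.4 to 49.9 CPM in EXOSC10 KO, against 223 to 239 CPM in EXOSC10 WT. Of the 8 erythroid markers, 2 rose and 3 fell in DIS3 KO and 3 fell in EXOSC10 KO, with sums of 38370 to 38590 CPM in DIS3 KO, against 45750 to 50810 CPM in DIS3 WT, and of 25080 to 29110 CPM in EXOSC10 KO, against 39950 to 42030 CPM in EXOSC10 WT. The part of these markers in the rise was not tested.

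**Figure D4:**
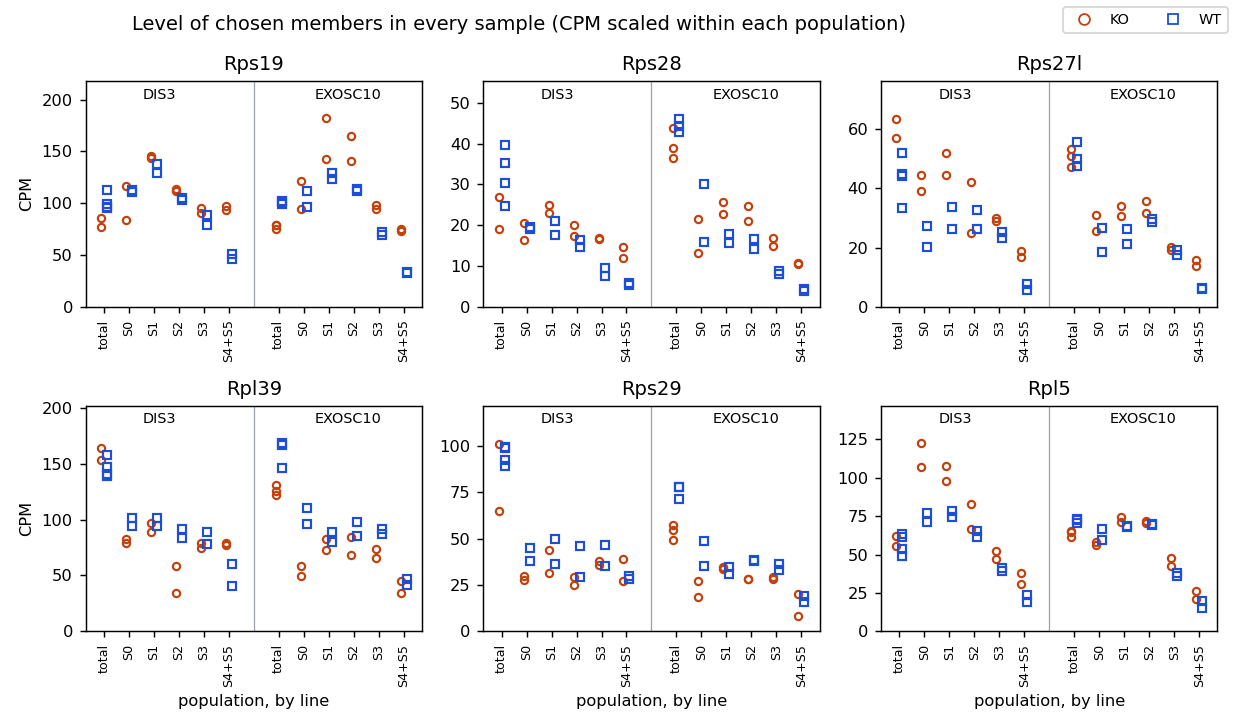
Level (CPM) of Rps19, Rps28, Rps27l, Rpl39, Rps29 and Rpl5 in each sample of each KO and WT group, in total liver and the sorted fractions of both lines. Rps19, Rps28 and Rps27l stand about 2-fold or more above WT in S4+S5 KO, whereas Rpl39 and Rps29 lie below WT in S0 KO.

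Over the 10 sorted comparisons, 60 of the 76 genes rose at least once, 42 of them in both lines, and 18 fell at least once. In single sorted comparisons, 7.63% (EXOSC10 S4+S5) to 23.4% (DIS3 S4+S5) of all genes rose. How many of all genes rose or fell at least once, or in both lines, was not counted. Rpl6, Rpl8, Rps14, Rps2 and Rps27l were among the genes called most often over the 12 comparisons with total liver, and each of them rose in 7. Rpl6 and Rps14 also fell in 2 and Rpl8 and Rps2 in 1, all of these falls in total liver. Of the 7 calls of Rps27l, 4 were lost on leaving out 1 sample, those in DIS3 total liver, DIS3 S3, EXOSC10 S1 and EXOSC10 S4+S5. Rpl39 and Rps29 fell in 5 and Rps20 in 4. Rps20 fell in total liver and S0 of both lines and rose in S4+S5 of both lines, with 118 and 126 CPM in DIS3 S4+S5 KO, against 87.8 and 103 CPM in DIS3 WT, and with 118 and 119 CPM in EXOSC10 S4+S5 KO, against 84.4 and 81.2 CPM in EXOSC10 WT. Rpl39 likewise rose in DIS3 S4+S5 (79.0 and 76.9 CPM in KO, against 60.6 and 40.2 CPM in WT; log2 0.62 ± 0.18, adjusted p = 0.00802, edgeR). That call was lost without WT replicate 2 (log2 0.34, adjusted p = 0.0512, edgeR) or the KO sample of replicates 1 and 3 (adjusted p = 0.0582, edgeR). Its level in EXOSC10 S4+S5 was 34.7 and 44.7 CPM in KO, against 46.6 and 41.9 CPM in WT, which overlapped. Rpl23a and Rpl24 were called in none of the sorted comparisons in which they were tested.

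**Figure D5:**
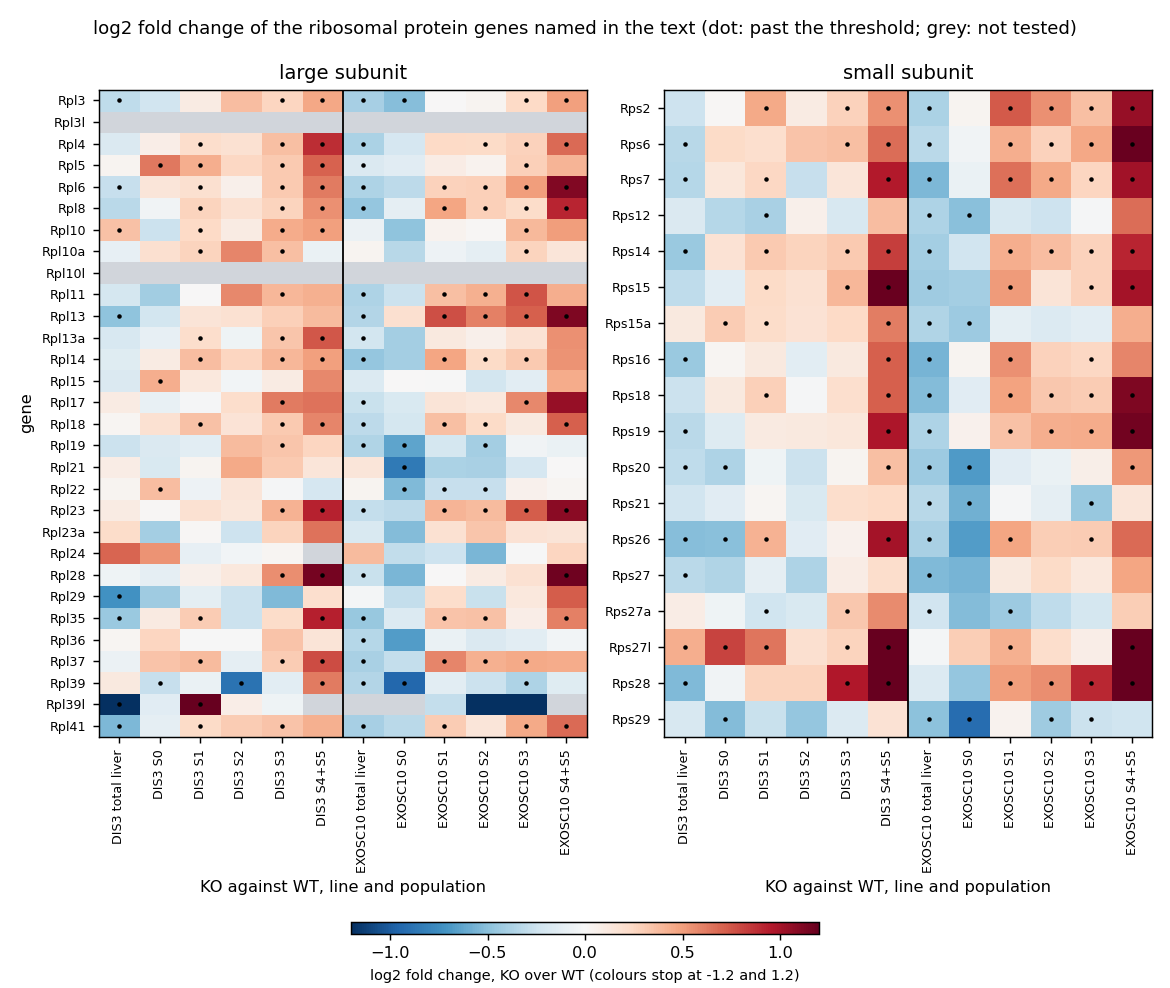
Log2 change in KO over WT of the ribosomal protein genes named in the text (rows) in total liver and the sorted fractions of both lines (columns), with calls marked. The S4+S5 columns are mostly positive and the EXOSC10 total liver column mostly negative, while Rpl39 and Rps29 are negative in most columns.

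Calls shared by the lines varied with the population. In total liver 22 genes fell in both, 88.0% of those that fell in DIS3 KO and 36.7% of those in EXOSC10 KO, where 60 of the 73 genes tested fell. In S0, 3 fell and 0 rose in both (Rpl39, Rps20, Rps29), and in S2, where 1 gene was called in DIS3 KO and 25 in EXOSC10 KO, 0 calls were shared. In S1, 20 rose in both, 62.5% of the DIS3 and 74.1% of the EXOSC10 calls, and in S3, 24 rose in both (70.6% and 68.6%). In S4+S5, 25 rose in both (56.8% and 86.2%). Whether the lines shared more calls than the sizes of these lists give was not tested. Across genes, the log2 values of the lines had a Pearson correlation between 0.17 in S2 and 0.57 in total liver, which describes genes that share libraries and carries no test.

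When the KO effect itself was compared between the lines, few genes differed. In S0, 4 genes had a higher KO effect in DIS3 than in EXOSC10, against 7.25% of all genes with a difference in either direction. These were Rpl22 (difference in log2 0.89 ± 0.15, adjusted p = 0.00331, edgeR), Rpl5 (0.76 ± 0.16, adjusted p = 0.0129), Rps15a (0.73 ± 0.13, adjusted p = 0.00537) and Rpl39 (0.65 ± 0.16, adjusted p = 0.0315). Rpl22 and Rps15a rose in DIS3 S0 KO and fell in EXOSC10 S0 KO (log2 -0.53 and -0.43), and Rpl5 rose in DIS3 S0 KO. In S1 the KO effect on Rpl13 was lower in DIS3, where it was not called (log2 0.15), than in EXOSC10 (difference -0.59 ± 0.13, adjusted p = 0.014, edgeR; 4.02% of all genes in either direction), and in S3 Rps21 differed (0.67 ± 0.12, adjusted p = 0.00961, edgeR; 1.41% of all genes). The differences of Rpl5, Rpl39, Rpl13 and Rps21 were each lost without at least 1 sample. That of Rpl39 was lost without any 1 DIS3 sample, or without EXOSC10 KO or WT replicates 2 and 3 (0.53 to 0.72). That of Rps21 was lost without DIS3 KO replicates 1 and 3, or without EXOSC10 KO or WT replicates 2 and 3. In total liver, S2 and S4+S5 no member passed edgeR's test, with 15, 15 and 5 at an unadjusted p under 0.05 and 4, 1 and 0 by the DESeq2 Wald test, against 1.02%, 2.22% and 7.01% of all genes.

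Genes of both subunits were called. In S4+S5, 24 of 42 large subunit genes and 20 of 30 small subunit genes rose in DIS3 KO (median log2 0.58 and 0.64), and 14 of 43 and 15 of 30 rose in EXOSC10 KO (0.49 and 0.66). In total liver, 13 of 44 large and 12 of 30 small subunit genes fell in DIS3 KO (-0.16 and -0.25), and 33 of 43 and 27 of 30 fell in EXOSC10 KO (-0.34 and -0.39). Of all genes, 23.4% rose in DIS3 S4+S5 and 7.63% in EXOSC10 S4+S5. In total liver, 24.2% of all genes fell in DIS3 KO and 31.0% in EXOSC10 KO. The share of large subunit genes that fell in DIS3 total liver was thus close to that of all genes. The difference between the subunits was not tested. In the WT step from S0 to S1, 29 of 44 large and 10 of 30 small subunit genes rose, against 28.1% of all genes.

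Of the 20 genes linked to Diamond-Blackfan anaemia in humans, 15 rose in DIS3 S4+S5 (median log2 0.67), against 44 of the 72 ribosomal protein genes tested and 23.4% of all genes, and 8 in EXOSC10 S4+S5 (0.50), against 29 of 73 and 7.63%. In total liver 8 fell in DIS3 KO, against 25 of 74 ribosomal protein genes and 24.2% of all genes, and 17 in EXOSC10 KO, against 60 of 73 and 31.0%. Rpl5 and Rpl11 are partners in the 5S particle, and no difference between the 2 genes was tested. In DIS3 S0 Rpl5 rose and Rpl11 was not called. In DIS3 S1 Rpl5 rose (log2 0.44 ± 0.07, adjusted p = 0.000328, edgeR), and in EXOSC10 S1 Rpl11 rose (log2 0.36, adjusted p = 0.00991, edgeR; 0.134 without WT replicate 1 and 0.163 without the KO sample of replicates 2 and 3). In DIS3 S3 both rose (log2 0.32 and 0.40), calls that were lost without the KO sample of replicates 1 and 3 (adjusted p = 0.154 and 0.246, edgeR). In DIS3 S4+S5 Rpl5 rose (log2 0.71 ± 0.20, adjusted p = 0.00617, edgeR), a call lost without the KO sample of replicates 1 and 3 (log2 0.53, adjusted p = 0.145, edgeR). Rpl11 was not called there (log2 0.43). In EXOSC10 S3 both rose. That call of Rpl5 was lost without WT replicate 1 (log2 0.25) or the KO sample of replicates 2 and 3 (log2 0.20). Over the sorted EXOSC10 fractions Rpl11 rose in 3 and Rpl5 in 1. In EXOSC10 total liver both fell (log2 -0.17 and -0.37, adjusted p = 0.02 and 0.000101, edgeR). There the call of Rpl5 was lost without WT replicate 2 (adjusted p = 0.0593, edgeR) or KO replicates 2 and 4 (0.0573).

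Ribosomal protein genes that the naming rule leaves out were counted separately. Of these 10 genes, 5 rose in S4+S5 of either line (23.4% of all genes in DIS3, 7.63% in EXOSC10), and 4 fell in DIS3 and 7 in EXOSC10 total liver (24.2% and 31.0% of all genes). Rplp0, the base of the large subunit's stalk, held 900 and 790 CPM in DIS3 S1 KO, against 482 and 487 CPM in DIS3 S1 WT, far apart (log2 0.80 ± 0.07, adjusted p = 3.24e-06, edgeR). It rose in all 5 DIS3 fractions and in S1, S2, S3 and S4+S5 of the EXOSC10 line. Rpl22l1, a paralogue of Rpl22 that Rpl22 represses in mouse, held 13.9 and 17.0 CPM in DIS3 S0 KO, against 26.2 and 24.0 CPM in DIS3 S0 WT (log2 -0.72 ± 0.16, adjusted p = 0.00624, edgeR). In EXOSC10 S0 it held 13.0 and 13.0 CPM in KO, against 23.0 and 21.99 CPM in WT (log2 -0.79 ± 0.15, adjusted p = 0.0137, edgeR). Rpl22l1 therefore fell in S0 of both lines, while Rpl22 differed in direction between them.

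Other genes of translation were counted as well. Of 16 further transcripts with a 5′TOP start, mostly translation factors, 15 fell in EXOSC10 total liver (median log2 -0.38), against 31.0% of all genes, and 6 fell and 1 rose in DIS3 total liver (-0.25), against 24.2% and 26.5%. In S4+S5, 9 rose and 3 fell in DIS3 KO (0.44; 23.4% and 23.7% of all genes), and 4 rose and 3 fell in EXOSC10 KO (0.30; 7.63% and 7.52%). Of the genes of the mitochondrial ribosome, 9 of 76 rose and 4 fell in DIS3 S4+S5 KO (median log2 0.00) and 3 of 77 rose in EXOSC10 S4+S5 KO (0.14), shares below those of all genes. In S1, 16 of 77 rose in DIS3 KO (20.8%, near the 20.6% of all genes) and 20 of 77 in EXOSC10 KO, against 15.2% of all genes. In EXOSC10 total liver 37 of 77 fell and 3 rose (-0.19), against 31.0% and 31.4%. The list was not tested against the cytoplasmic one.

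Of 6 tested ribosome rescue factors, 4 fell in DIS3 and 5 in EXOSC10 total liver, against 24.2% and 31.0% of all genes. They included Pelo, which helps to free stalled ribosomes and held 20.7 and 24.3 CPM in DIS3 KO, against 33.4, 34.1, 32.8 and 31.4 CPM in DIS3 WT (log2 -0.55 ± 0.11, adjusted p = 0.000619, edgeR). Gtpbp1 and Gtpbp2 fell there as well (log2 -0.96 and -0.80). In DIS3 S4+S5 Gtpbp1 (log2 0.83), Gtpbp2 (0.91) and Nemf (1.23) rose, against 23.4% of all genes. In EXOSC10 S4+S5 Gtpbp2 (0.45) and Nemf (0.93) rose, against 7.63%. The other rescue factors were not called in S4+S5. Of 5 chaperones of single ribosomal proteins, 2 fell in DIS3 S4+S5 (23.7% of all genes) and 2 rose in EXOSC10 S3 (16.8% of all genes). Those that rose there were Tsr2, the chaperone of Rps26 (log2 0.91 ± 0.19, adjusted p = 0.00225, edgeR), and Heatr3 (log2 0.26, adjusted p = 0.0243, edgeR). Tsr2 was not called in total liver of either line (log2 0.13 in both). Heatr3 and Grwd1 fell in DIS3 S4+S5 and in EXOSC10 S0, whereas Grwd1 rose in EXOSC10 S1 and S2. Bccip rose and Aamp fell in DIS3 S1, and both went the other way in EXOSC10 total liver.

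Pseudogenes named after these genes were counted as a list, and none was compared with its own parent. Of 48 tested in DIS3 S4+S5, 18 rose and 1 fell (median log2 0.70), against 23.4% and 23.7% of all genes. Of 79 tested in EXOSC10 total liver 36 fell (-0.44), against 31.0% of all genes, and of 52 tested in EXOSC10 S4+S5 4 rose (0.61), against 7.63%. The ribosomal protein genes themselves were split into those with at most 20% of shared 50-base words and those above it. In EXOSC10 total liver 31 of 36 and 29 of 37 fell, with a median log2 of -0.36 in both. In DIS3 S4+S5 25 of 36 and 19 of 36 rose (0.64 and 0.58), in EXOSC10 S4+S5 19 of 36 and 10 of 37 rose (0.61 and 0.52), and in EXOSC10 S0 10 of 36 and 5 of 37 fell (-0.36 and -0.30). More genes were thus called among those with few shared words in these 4 comparisons, and the difference was not tested. The 27 genes with snoRNAs in their introns, 52 in all, had medians close to those of the other genes, with log2 0.59 and 0.62 in DIS3 S4+S5 and -0.36 in both groups in EXOSC10 total liver. Across genes, the log2 values had Spearman's correlations of 0.23 or less with exon length and between -0.17 and 0.00 with the share of repeated words, a description with no test.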

How the data were processed

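The authors deposited unnormalised counts, whole numbers of reads for each Ensembl identifier, in a file for every library. The submitters' processing notes name build GRCm38, HISAT2 2.1.0, featureCounts 1.6.4 (Subread), DESeq2 1.20.0 and R 3.5.1. The annotation release, the strand setting and the treatment of multi-mapped reads are not given in the sources used here. Per the labels, the libraries were stranded total RNA depleted of ribosomal RNA, so overlapping genes on opposite strands may or may not be separated.

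Symbols came from GENCODE M21. Libraries of 1 group were compared by a chi-square per degree of freedom over genes with at least 20 counts. In 24 of 84 pairs it lay between 1.08 and 1.33 and in the others between 2.80 and 20.3, and pairs under 1.5 were summed. This joined replicates 1 and 3 (DIS3) and 2 and 3 (EXOSC10) in the sorted fractions. KO and WT of 1 population were compared in edgeR 4.0.16 by its quasi-likelihood test (R 4.3.3; TMM, filterByExpr, only the groups compared, no replicate block), WT fractions in 1 fit with line as a covariate, and lines by the interaction of line and genotype. Adjustment ran over all genes tested. With 2 samples a group precision is low. On simulated data, at least 81.4% of 4-fold and 44.9% of 2-fold changes were recovered, with at most 7.11% false calls. The simulation gave every gene the same fixed spread between samples and changed only a small set of genes. Recovery was counted among changed genes that passed the filter, so these rates need not hold for the real groups. Replicate numbers did not pair samples (correlations of deviations -0.086 to 0.094).

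The genes named in the text are, per comparison, the 3 above 1 CPM with the largest change among those called in each direction (2 for WT steps and line differences), the paralogues and their parents, Rps19, Rpl5, Rpl11 and the targeted genes, the genes called most often and examples of the lists; a few more complete small counts and were chosen after their values were seen, and a few members are not reported by name. The members, lists and tests were chosen with earlier results of these data known. Other settings were DESeq2 1.42.0 (size factors, Wald test), no filter, a replicate block, every library as its own sample, 1 fit of all sorted samples of a line, counts without Gm26917 and Gm42418, each line alone for WT steps, and leaving out each sample.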

Additional observations from a re-analysis of the deposited data

Results flagged for a closer look

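In DIS3 WT total liver, replicate 4 held 1.06% of its counts in the ribosomal protein genes, without Gm26917 and Gm42418, apart from 1.16% to 1.18% in the other 3 samples. It was the single sample set apart in this way among 14 tests of groups, of which chance flags about 1 in 20.

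The KO effect differed between the lines, by an interaction test in edgeR, for 4 genes in S0. The DIS3 minus EXOSC10 difference in log2 was 0.89 for Rpl22, 0.76 for Rpl5, 0.73 for Rps15a and 0.65 for Rpl39. In S1 the difference was -0.59 for Rpl13, and in S3 it was 0.67 for Rps21. Those of Rpl5, Rpl39, Rpl13 and Rps21 were each lost without at least 1 sample.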

How the results depend on the processing

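No called value of a single gene changed sign under these settings. Medians near 0 did, such as DIS3 S0 (-0.0315, 0.025 without WT replicate 2), DIS3 S2 (0.109, -0.0226 in the single fit) and the line differences in S1 (0.0047), S2 (0.0295), S3 (0.0362) and S4+S5 (0.0159). The cause of the shifts was not tested. Counts are of ribosomal protein genes called. Without a filter on low counts there were 14 in DIS3 S0, 5 in DIS3 S2, 32 in EXOSC10 S0 and 35 in WT S3 against S2. The line differences then numbered 5 (total liver), 7 (S0), 2 (S1), 6 (S2), 2 (S3) and 2 (S4+S5), and the median log2 of WT S4+S5 against S3 was -0.82. With every library as its own sample there were 22 in DIS3 S0, 8 in DIS3 S2, 47 in EXOSC10 S0, 50 in EXOSC10 S4+S5, 7 in WT S2 against S1 and 39 in WT S3 against S2. Line differences then numbered 7, 40, 10, 10, 10 and 6 in the same order, with median log2 differences of 0.42 in S0 and -0.013 in S2. The replicate block, in a design whose numbers do not pair samples, called 14 in DIS3 S0, 6 in DIS3 S2, 1 in WT S2 against S1 and 6, 2 and 2 line differences in total liver, S1 and S2. A single fit of all sorted samples of a line called 5, 1, 8 and 3 in DIS3 S0 to S3 and 17, 5 and 10 in EXOSC10 S1 to S3. Its median log2 values were 0.0891, -0.0226, 0.157 and 0.371 in DIS3 S1 to S4+S5 and 0.322 in EXOSC10 S4+S5. The DESeq2 Wald test called 3 in DIS3 S2, 22 in DIS3 S3, 2 in WT S2 against S1 and 4, 2 and 1 line differences in total liver, S1 and S2. DESeq2 size factors called 1 in WT S2 against S1. Without Gm26917 and Gm42418 there was 1 in WT S2 against S1 and 1 line difference in total liver, and the median log2 of WT S4+S5 against S3 was -0.80.

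Leaving out 1 sample at a time, counts ran from 8 to 40 in DIS3 total liver, 5 to 19 in DIS3 S0, 0 to 31 in DIS3 S2, 22 to 39 in DIS3 S3, 3 to 40 in EXOSC10 S0, 14 to 29 in EXOSC10 S1, 14 to 31 in EXOSC10 S2, 14 to 51 in EXOSC10 S4+S5 and 0 to 1 in WT S2 against S1. Where a group was left with 1 sample, that sample was taken to vary like the others. Line differences ran from 0 to 2 in total liver, 2 to 8 in S0, 0 to 5 in S1, 0 to 20 in S2, 0 to 2 in S3 and 0 to 8 in S4+S5. Medians ran from -0.39 to -0.064 in DIS3 total liver, -0.097 to 0.025 in DIS3 S0, 0.090 to 0.23 in DIS3 S1, 0.031 to 0.17 in DIS3 S2, 0.45 to 0.75 in DIS3 S4+S5, -0.45 to -0.18 in EXOSC10 S0, 0.076 to 0.11 in EXOSC10 S2 and 0.16 to 0.25 in EXOSC10 S3. Median line differences ran from 0.00065 to 0.30 in total liver, 0.19 to 0.42 in S0, -0.081 to 0.064 in S1, -0.075 to 0.081 in S2, -0.0085 to 0.084 in S3 and -0.081 to 0.23 in S4+S5.

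Of the values of single named genes, 99 of 1416 lost and 32 gained a call on leaving out 1 sample, 13 lost and 4 gained one of 236 with the Wald test, and 30 lost and 2 gained one of 118 with the single fit. Groups of 2 samples limit all counts, and genes such as Rpl39l rest on few reads.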
